A study of Mus musculus with 6 samples.

Results

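The genes described here are the enzymes that make, remove or repair reactive oxygen products: the phagocyte NADPH oxidase, the glutathione and thioredoxin systems, peroxiredoxins, superoxide dismutases, catalase, glutathione S-transferases and the factors that control them. They were matched by gene symbol alone, under a rule chosen with earlier results of these data known. Of the 9295 genes in the table, 58 matched. RNA was measured in bone marrow of mice with acute myeloid leukemia, in 3 samples labelled Con with the genotype PAPOLA flox/flox and 3 labelled KO with the genotype PAPOLA KO. Papola encodes the canonical poly(A) polymerase of the nucleus, and the study asks what its loss does in this leukemia. The labels give no Cre driver, leukemia model, age of the mice or sort of cells. They also leave it unsaid whether each library is a separate mouse, so the p-values may reflect technical spread alone.

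The phagocyte NADPH oxidase moves electrons from NADPH across the membrane onto oxygen and so makes superoxide, and it is best known from neutrophils and macrophages, which use it to kill microbes. Superoxide dismutases turn superoxide into hydrogen peroxide, which catalase, peroxiredoxins and glutathione peroxidases remove. Thioredoxin and glutathione supply the electrons for the peroxiredoxins and glutathione peroxidases, and are themselves reduced by NADPH-dependent reductases. NRF2, a transcription factor held down by its sensor KEAP1, switches on many of the enzymes that make and use glutathione and thioredoxin. The genes of NRF2, KEAP1, the membrane subunit Cyba, Sod1, Prdx3, Prdx6 and both heme oxygenases match the rule but are not in the table of counts. They could therefore not be analysed here. RefSeq holds 84 mouse protein-coding genes that match the rule, so families below are those genes of them that are in the table.

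Library totals were 11253932 to 11436216 counts in Con and 8875022 to 9768143 in KO, over a table that covers 42.1% of mouse protein-coding genes in RefSeq, so they are not the full depth. Papola itself did not fall in KO. It had 3751, 3779 and 3642 counts in the Con libraries and 2928, 2929 and 2440 counts in the KO libraries. After scaling it stood at 290.8 ± 6.42 and 339 ± 23.8, with KO above Con by 0.22 on the log2 scale (SE 0.08, adjusted p = 0.0291). That call was lost when any library but KO replicate 3 was left out (adjusted p = 0.0614 to 0.0814), with Con replicates 2 and 3 summed (0.0868) and with upper-quartile scaling (0.167). Scaled by library size alone, the difference was -0.13 (0.187). These alternatives for Papola were chosen after seeing the data. Counts of the whole gene do not check a deletion of part of it, so Con and KO stand below for the libraries labelled so. Con replicates 2 and 3 differed far less from each other (chi-square per degree of freedom 1.68) than any other pair of a group (17.7 to 23.7). The groups differed in markers of several cell types. As background for these counts, 39.6% of all genes tested were higher in KO and 42.4% lower. The marker lists were chosen with earlier results of these data known. Levels here and below are CPM, counts relative to the size of the library after TMM scaling. All 14 late neutrophil markers were higher in KO, and their summed level was 7755 to 8817 CPM in Con and 177750 to 205300 CPM in KO. All 13 erythroid markers were higher, with sums of 362 to 558 and 18241 to 25810 CPM. Of 10 macrophage markers 6 were lower, Mmp12, Gpnmb and Cd68 the most, and 4 higher, namely C1qa, C1qb, C1qc and Mertk. The 10 summed to 18647 to 28226 CPM in Con and 833 to 1551 CPM in KO. Most of the Con sum was Gpnmb (mean 14058 CPM) and Mmp12 (8292 CPM). Of the other lists, 6 of 6 eosinophil markers were higher (444 to 508 and 1389 to 1696 CPM) and 7 of 7 basophil and mast cell markers lower (2028 to 2651 and 454 to 701 CPM). Higher markers numbered 5 of 7 for B cells (44.4 to 76.4 and 97.3 to 283 CPM), 7 of 9 for T and NK cells (366 to 513 and 86.2 to 122 CPM) and 6 of 7 for endothelium and stroma (381 to 386 and 333 to 531 CPM). In Con the T and NK sum was mostly Gzmb (mean 303 CPM) and Cd28 (113 CPM), which were lower in KO. The endothelium and stroma sum was mostly Pecam1 (371 CPM), also lower, so these 2 sums do not follow most of their markers. Vpreb2, Ncr1 and Sele had no count in Con, and no marker was at 0 in all KO libraries. The part of these markers in the results below was not tested, and in bulk samples fewer cells of a type and less RNA per cell cannot be told apart.

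The 58 genes split in direction. All of them passed the filter on low counts, and 25 were higher and 24 lower in KO at an adjusted p of 0.05, with 9 not past the threshold. Among all 8358 genes tested 39.6% were higher and 42.4% lower (82.0% either way), against 43.1% and 41.4% (84.5% either way) of the redox genes, so the counts sit at the background. At least 2-fold changes numbered 17 in each direction, where 22.8% of all genes were at least 2-fold higher and 23.8% at least 2-fold lower. The median log2 fold change was 0.04 over the redox genes and -0.06 over all genes. The 2 groups of libraries did not overlap in 52 of the 58 genes, against 84.5% of all genes. Some families had 1 direction and others split. The 3 oxidase subunits described here, the 3 glutathione peroxidases in the table and all 3 membrane glutathione S-transferases were higher. The 9 alpha, mu and theta class soluble transferases in the table were lower. Peroxiredoxins, thioredoxins with their reductases, glutathione synthesis and the NRF factors held genes of both directions, as the plot of fold changes by role shows. The families were looked at after their values were known, so these counts are descriptions. All 49 genes past the threshold kept their direction under the 4 scalings tried. With library size only, the median of all genes moved by -0.35 on the log2 scale. There 24 redox genes were higher and 29 lower, against 29.8% and 53.6% of all genes.

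**Figure D1:**
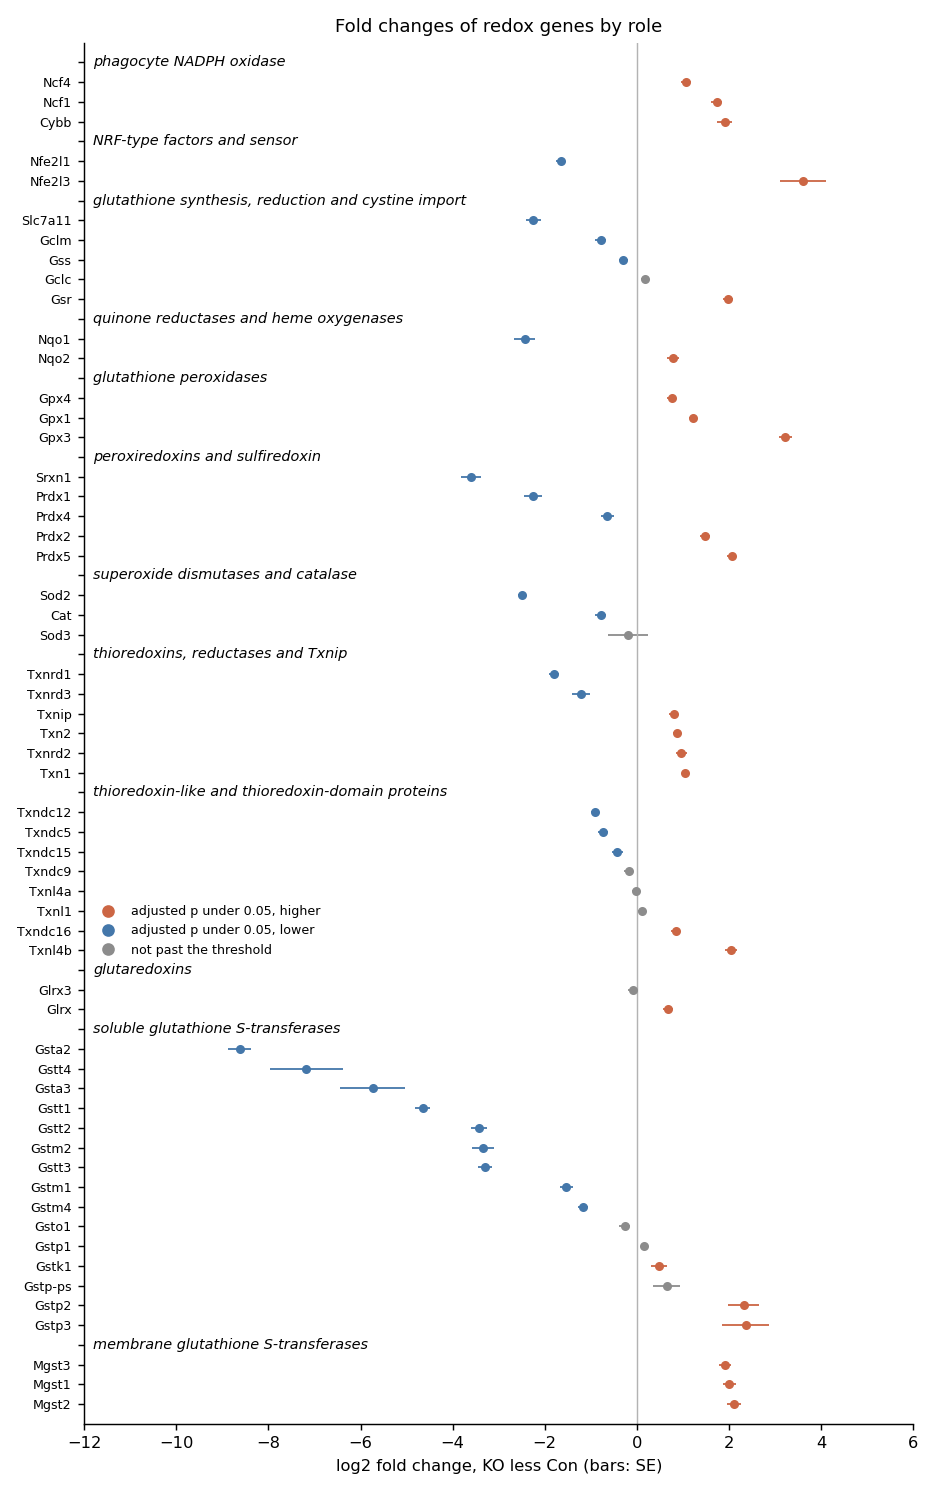
Log2 fold change (KO less Con, x axis) of the redox genes, grouped by role, with bars for the SE. Oxidase subunits, glutathione peroxidases and membrane transferases lie to the right of 0, and alpha, mu and theta class transferases to the left, with Gsta2 farthest at -8.62.

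The oxidase genes Cybb, Ncf1 and Ncf4 were 2.09-fold to 3.74-fold higher in KO. Cybb, the catalytic flavocytochrome subunit in the membrane, had 362, 552 and 535 CPM in Con and 2049, 1586 and 1783 CPM in KO, in the order of the replicates as everywhere below. Every KO library lay above every Con library, and Con replicate 1 was the lowest of all, at 66.6% of the mean of the other Con libraries. The difference on the log2 scale was 1.90 (SE 0.17, adjusted p = 6.34e-06). Ncf1, the cytosolic organizer of the complex, stood at 494, 549 and 556 CPM in Con and 2015, 1742 and 1549 CPM in KO (1.73, SE 0.11, adjusted p = 6.19e-07). Ncf1 rose with no overlap between the groups. Ncf4, a regulatory subunit that binds a phosphoinositide of the phagosome membrane, rose less, from 223, 229 and 231 CPM to 539, 483 and 407 CPM (1.06, SE 0.11, adjusted p = 9.98e-06). Within single libraries the amount of Ncf4 relative to Ncf1 per length was 0.888, 0.823 and 0.818 in Con and 0.526, 0.546 and 0.517 in KO. That ratio did not overlap between the groups, whereas the ratio of Cybb to Ncf1 (0.546 ± 0.0892 in Con and 0.622 ± 0.0730 in KO; SD, n = 3 each) did. No test was run on these ratios.

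Of 19 partners of the oxidase listed, 4 were in the table, and all 4 were higher, where 39.6% of all genes tested were higher. This list, too, was chosen with earlier results of these data known. Rac2, the RAC GTPase of blood cells that switches the complex on, went from 659 ± 7.05 to 2185 ± 133 CPM (1.73, SE 0.09, adjusted p = 1.21e-07; SD, n = 3 each here and below). Cybc1, which helps the membrane subunits to be made, rose from 99.2 ± 3.26 to 135 ± 12.9 CPM, a smaller change of 0.44 (SE 0.09, adjusted p = 0.0012). Mpo, myeloperoxidase, which turns hydrogen peroxide into hypochlorous acid, rose by 3.25 (SE 0.12). The summed late neutrophil markers were 177750 CPM or more in the same KO libraries and 8817 CPM or less in Con.

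**Figure D2:**
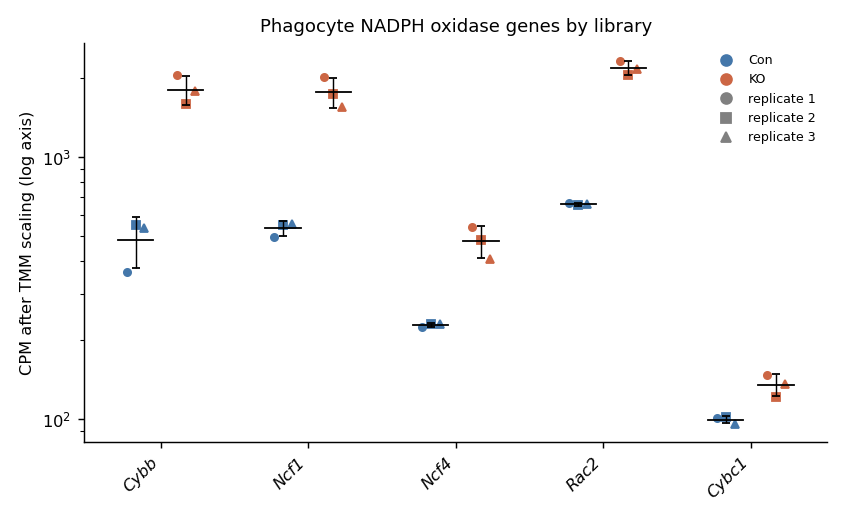
Level of oxidase genes in each library (CPM after TMM scaling, log axis), with the mean and SD of each group. Every KO library lies above every Con library for the 3 subunits, Rac2 and Cybc1, and Cybb is lowest in Con replicate 1 at 362 CPM.

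NRF2 binds a short DNA element, the antioxidant response element, with the core TGACNNNGC, in promoters of its targets. Promoter windows from RefSeq (build GRCm38.p6, 250 bases before to 50 after a start) were found for 49 of the 58 genes and searched for this core on both strands. It was present in 6 of 23 genes lower in KO (26.1%), in 1 of 22 genes higher in KO (4.55%), and in 16.1% of the 7341 genes of the table with a window. Over all 49 redox genes the share was 14.3%. A gene can have several windows, and counted by window the shares lay closer together. They were 17.6% of 34 windows for genes lower in KO, 3.57% of 28 for genes higher and 13.7% of 9284 for all genes. A match describes letters and does not show binding, and no match says only that these letters are not in the window. The stretches that hold it upstream of the start are shown 5′ to 3′ on the strand of the gene, with the core, or its reverse complement, in capitals and 20 bases on each side. The core of Srxn1, the seventh gene, lies after the start and is not shown.
Prdx1 (chr4:116685446-116685494, + strand): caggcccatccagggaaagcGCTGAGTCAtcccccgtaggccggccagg
Txnrd1 (chr10:82859094-82859142, + strand): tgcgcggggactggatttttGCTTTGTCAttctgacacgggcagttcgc
Gclm (chr3:122245403-122245451, + strand): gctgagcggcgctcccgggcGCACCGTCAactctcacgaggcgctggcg
Gsta3 (chr1:21240444-21240492, + strand): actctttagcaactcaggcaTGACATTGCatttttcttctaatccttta
Txndc5 (chr13:38528024-38528072, - strand): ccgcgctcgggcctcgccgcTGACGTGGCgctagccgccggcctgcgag
Mgst1 (chr6:138140451-138140499, + strand): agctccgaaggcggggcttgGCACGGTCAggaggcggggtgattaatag
The first 5 belong to genes that were lower in KO and Mgst1 to one that was higher. Another motif, GAGGAA, the core bound by the myeloid factor PU.1, was in 40.9% of the windowed genes higher in KO, in 43.5% of those lower in KO and in 31.2% of all genes with a window. Counted by window, these shares were 32.1%, 32.4% and 27.4%.

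Both factors of the NRF family in the table changed, in opposite directions. Nfe2l1, a relative of NRF2 that resides in the endoplasmic reticulum until processed and controls proteasome genes, fell from 347, 369.5 and 362 CPM to 109.7, 102 and 130.5 CPM, which is -1.66 on the log2 scale (SE 0.10, adjusted p = 4.25e-07). Nfe2l3, a less studied relative, had 2, 3 and 3 counts in Con and 15, 18 and 32 in KO, so its 3.61 (SE 0.49, adjusted p = 8.73e-05) rests on few reads. Of 8 partners and repressors of NRF2 in the table (13 listed) 5 were higher and 3 lower. These are 62.5% and 37.5%, against 39.6% and 42.4% of all genes tested. Sqstm1, an autophagy receptor that binds KEAP1, fell from 1593 ± 160 to 338 ± 44.6 CPM (-2.24, SE 0.12), and Maff, a small MAF protein that pairs with NRF2, fell by 1.499 (SE 0.22). Cul3, the ubiquitin ligase scaffold that acts with KEAP1, rose by 0.66 (SE 0.08), the coactivator gene Crebbp by 0.69 (SE 0.12) and Nfe2, the erythroid and megakaryocyte relative of NRF2, by 1.51 (SE 0.10), and the kinase gene Gsk3b fell by 0.32 (SE 0.09). Erythroid markers summed to 18241 CPM or more in KO and 558 or less in Con.

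Srxn1, Nqo1 and Slc7a11, known as NRF2 targets, were lower in KO. Srxn1, sulfiredoxin, which repairs overoxidized peroxiredoxins, had 203, 327 and 305 CPM in Con and 24.9, 26.5 and 17.6 CPM in KO. The groups were far apart, with a 12.1-fold lower level in KO (log2 fold change -3.59, SE 0.22, adjusted p = 6.33e-07). Nqo1, a quinone reductase often used as a readout of NRF2, stood at 26.9, 45.3 and 45.02 CPM in Con and 7.60, 6.29 and 7.72 CPM in KO (-2.44, SE 0.23, adjusted p = 7.15e-06). Slc7a11, the cystine importer that feeds glutathione synthesis, stood at 394, 529.97 and 517 CPM in Con and 91.0, 86.6 and 126 CPM in KO (-2.25, SE 0.17, adjusted p = 1.99e-06). In each of these genes Con replicate 1 was the lowest Con library and still lay above every KO library. Nqo2, the related quinone reductase that uses other electron donors, went the other way, from 54.4 ± 10.1 to 93.7 ± 8.99 CPM (0.79, SE 0.14, adjusted p = 0.000477). Nqo2 had been listed with them as an NRF2 target enzyme, as had Gclm and Gclc below. Of these, Gclm was lower and Gclc was not called, so the listed targets did not all fall.

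The 2 subunits of glutamate-cysteine ligase, which catalyses the first step of glutathione synthesis, parted. Gclm, the modifier subunit, fell from 147, 194 and 184 CPM to 114.5, 97.6 and 91.1 CPM (-0.79 on the log2 scale, SE 0.13, adjusted p = 0.00025). Gclc, the catalytic subunit, was at 56.9 ± 3.09 CPM in Con and 64.4 ± 3.46 CPM in KO and did not pass the threshold (0.18, SE 0.08, adjusted p = 0.0753). It passed as higher with RLE scaling, with DESeq2 and under the stricter filter (0.20 to 0.23), and was at -0.18 with library size only. The per-length ratio of Gclm to Gclc within a library was 1.68, 2.00 and 1.95 in Con and 1.11, 0.967 and 0.817 in KO, with no overlap. Gss, glutathione synthetase, the second step, was slightly lower, at 31.4 ± 1.63 and 25.6 ± 0.606 CPM (-0.29, SE 0.10, adjusted p = 0.0189), a call that was lost without Con replicate 2 (adjusted p = 0.0823), without Con replicate 3 (0.117), with these 2 summed (0.0789) and with DESeq2 (0.0896). Gsr, glutathione reductase, which regenerates glutathione from its oxidized form with NADPH, rose instead. Its level was 279.98, 308 and 305 CPM in Con and 1322, 1116 and 1089 CPM in KO (1.98, SE 0.10, adjusted p = 1.38e-07), a 3.95-fold difference.

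The 15 other NRF2 targets in the table (27 listed) held 11 that were lower and 4 that were higher in KO, where 42.4% of all genes tested were lower and 39.6% higher. Their median log2 fold change was -1.65, against -0.06 over all genes. The list was chosen with earlier results of these data known, so these values are descriptions. The lowest were Me1, malic enzyme (18.9 ± 3.02 to 1.53 ± 0.444 CPM, -3.63, SE 0.24), the aldo-keto reductase gene Akr1b8 (-2.997, SE 0.31) and Abcc1, an exporter of glutathione conjugates (292 ± 11.1 to 38.3 ± 6.84 CPM, -2.93, SE 0.12). The 3 that rose most belong to the pentose phosphate pathway, which makes NADPH: Tkt, transketolase (690 ± 3.20 to 2098 ± 177 CPM, 1.60, SE 0.09), Taldo1, transaldolase (1.60, SE 0.08), and G6pdx, the glucose-6-phosphate dehydrogenase that starts the pathway (366 ± 39.3 to 924 ± 121 CPM, 1.33, SE 0.12). Ugdh, named after its values were seen, was the fourth (0.36). Genes that supply NADPH split, with 4 of 10 higher and 5 lower. Besides G6pdx, the lactonase gene Pgls (1.31, SE 0.08) and the NAD kinase gene Nadk (1.31, SE 0.08) rose. Me1, the mitochondrial folate enzyme gene Aldh1l2 (16.4 ± 4.13 to 0.669 ± 0.535 CPM, -4.62, SE 0.38) and Mthfd1l (-0.88, SE 0.10) fell.

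The 3 glutathione peroxidases in the table, selenoenzymes that reduce peroxides with glutathione, all rose. Gpx1, the cytosolic form, stood at 875, 955 and 981 CPM in Con and 2045, 2211 and 2256 CPM in KO (log2 fold change 1.21, SE 0.09, adjusted p = 1.42e-06). Gpx3, the secreted form, rose most, from 21.5, 28.2 and 28.8 CPM to 262, 258 and 213 CPM (3.22, SE 0.14, adjusted p = 4.38e-08), a 9.34-fold difference with no overlap. Gpx4, which reduces lipid peroxides in membranes and blocks ferroptosis, rose least, from 269, 248 and 289 CPM to 427, 483 and 448 CPM (0.75, SE 0.09, adjusted p = 3.53e-05). With library size only, the change of Gpx4 was 0.40. Genes that make selenoproteins, and other selenoproteins, moved both ways, 6 of 16 up and 6 down (median -0.03). Each count is 37.5%, against 39.6% higher and 42.4% lower among all genes tested. Selenop, the secreted selenium carrier, rose from 59.1 ± 9.57 to 752 ± 92.6 CPM (3.67, SE 0.15), the methionine sulfoxide reductase gene Msrb1 by 2.27 (SE 0.08) and Selenoo by 1.35 (SE 0.13). Dio2, a deiodinase, fell by 3.30 (SE 0.32), and Sepsecs, which makes the tRNA-bound selenocysteine, by 1.03 (SE 0.12) and Selenoi by 0.93 (SE 0.10).

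Peroxiredoxins, the abundant thiol peroxidases, moved apart. Prdx1, a cytosolic form, had 1285, 2093 and 2081 CPM in Con and 334, 444 and 369 CPM in KO. It was 4.76-fold lower in KO (log2 fold change -2.25, SE 0.20, adjusted p = 6.64e-06), and leaving out any 1 library left it between -2.44 and -2.12. Prdx4, the form of the endoplasmic reticulum, was also lower, at 59.0 ± 6.40 and 37.8 ± 7.38 CPM (-0.64, SE 0.14, adjusted p = 0.002). Prdx2, the cytosolic form abundant in red cells, rose from 216, 236 and 228 CPM to 556, 605 and 735 CPM (1.48, SE 0.11, adjusted p = 1.52e-06). The erythroid markers summed to 362 to 558 CPM in Con and 18241 to 25810 CPM in KO, and their part in this result was not tested. Prdx5, found in mitochondria, peroxisomes and cytosol, rose from 459, 522 and 541 CPM to 2158, 2089 and 2098 CPM (2.06, SE 0.09, adjusted p = 6.72e-08). Its counts are not whole in any library, which an estimated count can be where reads match several genes.

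The order of these enzymes changed between the groups. Compared per kilobase of exon, Gpx1 (874 ± 51.6 CPM per kb) and Prdx1 (715 ± 182) led the 58 genes in Con, where their libraries overlapped, with 816 to 915 for Gpx1 and 505 to 823 for Prdx1. In KO Gpx1 (2025 ± 104) and Prdx5 (1462 ± 26.1) led without overlap, and Prdx1 was eighteenth of 58 (150.2 ± 22.0). Within single libraries the ratio of Prdx5 to Prdx1 per length was 0.628, 0.439 and 0.457 in Con and 11.4, 8.28 and 9.99 in KO. Exon lengths come from GENCODE M21, which may differ from the annotation used for counting, but that does not affect the change of a ratio between groups. The ranks and the size of a ratio within a group do depend on the lengths, which join all annotated exons (2544 bases for Prdx1 and 1072 for Gpx1). Without division by length, Prdx1 (1819 ± 463 CPM) lay above Gpx1 (937 ± 55.3 CPM) in Con.

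**Figure D3:**
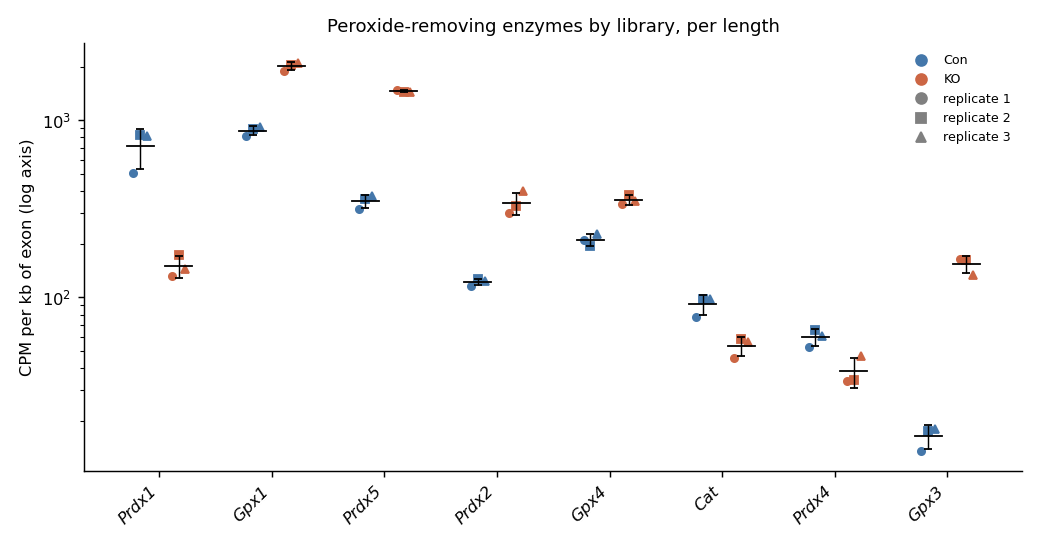
Level of 8 peroxide-removing enzymes in each library, as CPM per kilobase of exon on a log axis, with the mean and SD of each group. Prdx1 falls from 715 to 150.2 while Prdx5 rises from 351 to 1462 and Gpx3 from 16.4 to 153, and the groups do not overlap for any of the 8 genes.

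Superoxide dismutase and catalase genes in the table fell or did not pass. Sod2, the manganese enzyme of mitochondria and also a known NF-kB target, stood at 452, 526 and 529.7 CPM in Con and 83.7, 92.4 and 91.4 CPM in KO, a 5.64-fold lower level (log2 fold change -2.50, SE 0.10, adjusted p = 2.60e-08). Cat, catalase, a peroxisomal enzyme, fell from 203, 257 and 257 CPM to 119, 152 and 146 CPM (-0.78, SE 0.12, adjusted p = 0.000241). Sod3, the extracellular enzyme, had 4 to 14 counts per library and was not called (-0.20, SE 0.43, adjusted p = 0.683). Catalase is abundant in red cells, and the erythroid markers summed to 18241 CPM or more in the same KO libraries.

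In the thioredoxin system, thioredoxins rose and the cytosolic reductase fell. Txn1, cytosolic thioredoxin, stood at 463, 460.2 and 478 CPM in Con and 987, 969 and 944 CPM in KO (log2 fold change 1.05, SE 0.08, adjusted p = 1.18e-06). Txn2, the mitochondrial form, rose from 124 ± 0.687 to 226 ± 6.75 CPM (0.86, SE 0.07, adjusted p = 2.74e-06). Txnrd1, the cytosolic thioredoxin reductase, fell from 412, 512 and 509 CPM to 134, 147 and 129.8 CPM (-1.80, SE 0.11, adjusted p = 3.39e-07). The mitochondrial reductase Txnrd2 rose from 17.6 ± 1.84 to 34.3 ± 2.32 CPM (0.96, SE 0.12, adjusted p = 4.11e-05), and Txnrd3, a reductase with a glutaredoxin domain, fell from 14.4 ± 0.811 to 6.23 ± 1.71 CPM (-1.21, SE 0.20, adjusted p = 0.000305). So the mitochondrial pair rose together and the cytosolic pair parted. The per-length ratio of Txn1 to Txnrd1 was 3.83 ± 0.467 in Con and 27.4 ± 1.59 in KO. Of the 2 NADPH-dependent reductases, Gsr was level with Txnrd1 per length in Con (ratio 0.914 to 1.04) and 11.6-fold to 15.0-fold above it in KO. The size of these ratios depends on the exon lengths used. Without division by length, Gsr lay below Txnrd1 in Con (298 ± 15.5 and 478 ± 57.1 CPM) and above it in KO (1176 ± 127 and 137 ± 8.76 CPM). Txnip, which binds and inhibits thioredoxin and limits glucose uptake, rose from 427, 407 and 384 CPM to 711, 631 and 784 CPM (0.80, SE 0.10, adjusted p = 4.40e-05).

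Proteins named for a thioredoxin domain include folding enzymes and splicing proteins, and of these 8 genes 2 were higher, 3 lower and 3 not called. That is 25.0% higher and 37.5% lower, against 39.6% and 42.4% of all genes tested. Among the disulfide-handling proteins of the endoplasmic reticulum, Txndc12 fell from 61.2 ± 2.47 to 32.4 ± 1.18 CPM (-0.92 on the log2 scale, SE 0.08) and Txndc5 from 151 ± 11.1 to 90.7 ± 11.9 CPM (-0.74, SE 0.11), while Txndc16 rose from 27.4 ± 2.17 to 49.4 ± 3.14 CPM (0.85, SE 0.10). Txndc15, a membrane protein of the same family, fell by 0.42 (SE 0.11). Txnl4a and Txnl4b share the thioredoxin fold but are spliceosome proteins. Txnl4b rose from 14.5, 14.9 and 12.8 CPM to 55.3, 51.3 and 67.9 CPM (2.05, SE 0.13, adjusted p = 5.06e-07), and Txnl4a was at 109.995 ± 1.20 and 108.4 ± 4.96 CPM (-0.02, SE 0.08, adjusted p = 0.801). Txnl1, a proteasome-associated protein (0.11, SE 0.09, adjusted p = 0.267), and Txndc9, a chaperone cofactor (-0.18, SE 0.10, adjusted p = 0.135), did not pass. With library size only Txnl1, Txnl4a and Txndc9 passed as lower, and Txndc9 also with upper-quartile scaling (-0.26, adjusted p = 0.0438). Of the glutaredoxins, which reduce mixed disulfides with glutathione, Glrx rose from 299 ± 31.0 to 476 ± 42.5 CPM (0.67, SE 0.10, adjusted p = 0.000222). Glrx3, an iron-sulfur cluster protein, was at 153 ± 7.04 and 144 ± 16.1 CPM (-0.09, SE 0.09, adjusted p = 0.405), and passed as lower with library size only (-0.44, adjusted p = 0.0026).

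Of 18 genes of methionine sulfoxide and protein thiol repair in the table (25 listed) 8 were higher and 10 lower. These are 44.4% and 55.6%, against 39.6% and 42.4% of all genes tested. The methionine sulfoxide reductases Msra (25.8 ± 2.23 to 280.2 ± 30.7 CPM, log2 fold change 3.44, SE 0.11) and Msrb1 rose most, with Nadk after them. Ero1a, which drives disulfide formation in the secretory pathway, went down from 2881 ± 159 to 224 ± 30.8 CPM (-3.69, SE 0.12). The disulfide isomerase gene Pdia4 fell by 2.87 (SE 0.14), and the sulfhydryl oxidase gene Qsox1 fell by 1.83 (SE 0.10).

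The glutathione S-transferases, which couple glutathione to electrophiles, held the steepest falls of the set. Gsta2, an alpha class enzyme best known from liver, had 1083, 1107 and 1089.8 counts in Con and 3, 0 and 2 in KO. This is 417-fold lower by the ratio of scaled counts (95% counting interval 179 to 1286, for counting error only; adjusted p = 6.05e-09). Its Con counts are not whole either. Gsta3 had 56, 97 and 121 counts in Con and 0, 0 and 3 in KO, a 58.1-fold lower level (counting interval 19.7 to 283). All of its KO counts came from KO replicate 3, so the size of that fold rests on 1 library, and without it the fitted log2 fold change went from -5.73 to -9.31, a value that depends on the prior count because the other KO libraries are at 0. Gstt4 had 23, 22 and 21 counts in Con and none in KO. Taking 3 counts over the KO libraries as the floor, it was 14.0-fold lower, and its 95% counting interval starts at 11.1-fold. The other theta class genes fell as well. Gstt1 stood at 131, 119 and 117 CPM in Con and 6.31, 4.56 and 3.60 CPM in KO (log2 fold change -4.65, SE 0.16, adjusted p = 1.28e-08), Gstt2 fell from 66.3 ± 10.7 to 6.15 ± 0.969 CPM (-3.42, SE 0.17) and Gstt3 from 40.9 ± 3.30 to 4.13 ± 0.669 CPM (-3.30, SE 0.15).

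Among mu class genes, which stand side by side in the genome and are similar in sequence, Gstm1 was the most abundant. It had 496, 700.4 and 708 CPM in Con and 217, 242 and 199 CPM in KO, with Con replicate 1 lowest in its group (-1.53, SE 0.15, adjusted p = 7.82e-06). Gstm2 fell further, from 37.2, 59.1 and 57.7 CPM to 5.61, 6.04 and 3.47 CPM (-3.34, SE 0.25, adjusted p = 1.73e-06), and Gstm4 less, from 41.8 ± 1.87 to 18.5 ± 1.81 CPM (-1.18, SE 0.11). The pi class main gene Gstp1 did not pass, at 121 ± 1.25 and 136 ± 9.37 CPM (0.16, SE 0.08, adjusted p = 0.0885). It passed as higher with RLE scaling, with DESeq2 and without KO replicate 1, and was at -0.20 with library size only. Its close copies were near the limit of counting, with at most 42 counts in any library, and are uncertain as single values because reads may be shared. Gstp2 (2.32, SE 0.33) and Gstp3 (2.36, SE 0.52) passed as higher and Gstp-ps (0.65, SE 0.30, adjusted p = 0.0682) did not. Gstp3 had 21 counts in Con replicate 1 and 2 and 9 in the others, and its change was 3.28 without that library. Gsto1, of the omega class, was at 116 ± 13.5 and 96.7 ± 11.51 CPM (-0.27, SE 0.12, adjusted p = 0.0598), and passed as lower under 5 of the 15 alternatives. Gstk1, of the kappa class, was at 6.54 ± 0.675 and 9.12 ± 1.19 CPM (0.48, SE 0.18, adjusted p = 0.0287). That call was lost without Con replicate 1 (adjusted p = 0.0688), without Con replicate 3 (0.085), without KO replicate 2 (0.0675), without KO replicate 3 (0.085), with Con replicates 2 and 3 summed (0.0563) and under 2 other scalings.

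The membrane-bound transferases, a separate protein family, all rose, by 1.91 to 2.10 on the log2 scale. Mgst1, an abundant form of the endoplasmic reticulum and mitochondria, had 75.1, 107 and 98.6 CPM in Con and 389, 337 and 401 CPM in KO (log2 fold change 2.01, SE 0.14, adjusted p = 7.13e-07). Mgst2, which can also make leukotriene C4, rose from 21.5, 33.2 and 31.5 CPM to 131, 115 and 124 CPM (2.10, SE 0.15, adjusted p = 1.20e-06). Mgst3 rose from 10.4 ± 1.07 to 39.1 ± 4.87 CPM (1.91, SE 0.14, adjusted p = 9.91e-07). None of the 3 overlapped between the groups. The 15 soluble genes in the table as a sum went from 1298 ± 133 CPM in Con to 508 ± 28.9 CPM in KO. The membrane genes went from 133 ± 23.2 to 538 ± 45.2 CPM. Neither sum overlapped between the groups. Late neutrophil markers were higher in the same KO libraries, as given above. Of 10 macrophage markers 6 were lower, with Gpnmb and Mmp12 among them, and 4 higher.

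**Figure D4:**
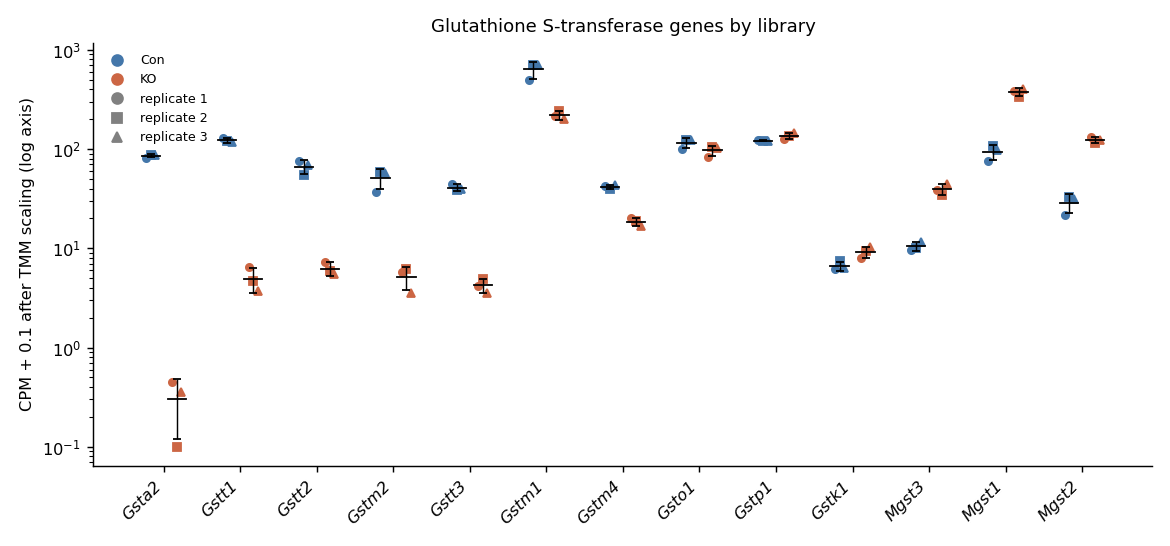
Level of 13 glutathione S-transferase genes in each library (CPM plus 0.1 on a log axis), with the mean and SD of each group, from the alpha class gene Gsta2 to the membrane genes. Alpha, theta and mu class genes are lower in KO without overlap, Gsto1 overlaps, and Mgst1, Mgst2 and Mgst3 are higher in KO.

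Genes of glutathione turnover moved in both directions, with 5 of 12 tested higher and 5 lower. Each count is 41.7%, where 39.6% of all genes tested were higher and 42.4% lower. Anpep, an aminopeptidase that can split the dipeptide left from glutathione, fell from 422 ± 67.3 to 3.01 ± 1.20 CPM (-7.13 on the log2 scale, SE 0.23, adjusted p = 1.61e-08). Cth, which makes cysteine (-4.20, SE 0.72), and Ggt7 (-3.88, SE 0.38) fell from low levels of 3.96 ± 2.68 and 3.79 ± 0.79 CPM. Ggt1 and Ggt5, which open the degradation of extracellular glutathione compounds, rose by 3.34 (SE 0.43) and 3.32 (SE 0.22), and the persulfide dioxygenase gene Ethe1 rose from 24.3 ± 2.46 to 150 ± 10.7 CPM (2.63, SE 0.10). Genes of lipid peroxidation and ferroptosis likewise split, with 7 of 16 higher and 7 lower (43.8% each). Alox15, a lipoxygenase that oxidizes membrane lipids, rose from 2.36 ± 0.419 to 115 ± 23.8 CPM (5.59, SE 0.20), Slc40a1, the iron exporter, by 4.51 (SE 0.12) and the platelet-type lipoxygenase gene Alox12 by 3.60 (SE 0.28). Acsl4, which loads polyunsaturated fatty acids, fell from 211 ± 22.3 to 51.5 ± 3.76 CPM (-2.04, SE 0.10), and Aifm2 and Lpcat3 fell by 1.98 (SE 0.14) and 1.97 (SE 0.15).

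Taking all 58 genes as a sum, they held 1.23%, 1.41% and 1.41% of all counts in the Con libraries and 1.56%, 1.53% and 1.51% in the KO libraries. The share was slightly higher in KO in every library. The glutathione peroxidases went from 0.139% ± 0.00445 to 0.254% ± 0.0132 of counts, while the soluble transferases went from 0.147% ± 0.0109 to 0.0449% ± 0.00326 and the dismutases and catalase from 0.0839% ± 0.00616 to 0.0202% ± 0.00214.

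Within Con, replicate 1 stood apart for part of the set. Of the 50 redox genes at 10 CPM or more in Con, 7 were at least 0.5 lower on the log2 scale in Con replicate 1 than in the mean of replicates 2 and 3 (Nqo1, Prdx1, Gstm2, Srxn1, Mgst2, Cybb and Gstm1), which is 14.0%, against 2.26% of all 6429 genes at that level. The level and the cutoff were chosen after the values were seen, and no test was run, since this is 1 library. Nqo1 in Con replicate 1 was at 59.6% of the mean of the other 2, Prdx1 at 61.6% and Srxn1 at 64.3%. The macrophage marker sum was also lowest there, at 18647 CPM against 28226 and 27594, and the erythroid sum highest, at 558 CPM against 368 and 362, and their part in this spread was not tested. The theta class genes did not share the pattern: Gstt1, Gstt2 and Gstt3 were 111% to 123% of the mean of replicates 2 and 3 in Con replicate 1. Without Con replicate 1, 24 redox genes were higher and 25 lower in KO, and the direction of all 49 called genes was the same under every alternative that tested them.

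**Figure D5:**
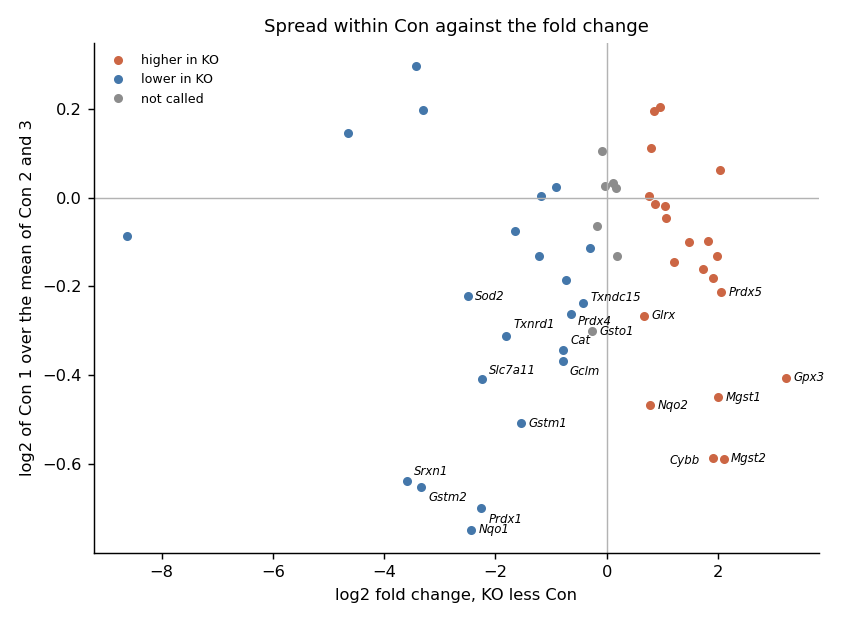
For the 50 genes at 10 CPM or more in Con, the log2 ratio of Con replicate 1 to the mean of Con replicates 2 and 3 (y axis) against the log2 fold change of KO less Con (x axis), colored by call. Nqo1, Prdx1, Gstm2 and Srxn1 lie lowest among the genes lower in KO, and Cybb and Mgst2 lowest among those higher.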

How the data were processed

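Bone marrow RNA was taken with TRIzol, and a BGI mRNA kit gave the libraries, per the labels' protocols. The table deposited by the authors holds unscaled read counts for each gene and library, per the file headers. In 1449 of its 9295 genes (6 of the 58 redox genes) a count is not whole, so the deposited values were treated like estimated counts and rounded before any test. Aligner, counter, annotation and strand use were not given in the sources used here. GRCh38, a human build, is named in the submitters' processing notes, while IDs and symbols are of mouse, so no gene coordinates are given, and the promoter stretches carry those of RefSeq's GRCm38.p6. The number of value columns left unused was 0.

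The comparison of KO less Con used edgeR 4.0.16 under R 4.3.3 (TMM factors of 0.8759 to 1.17, filterByExpr by group, robust quasi-likelihood test, two-sided, no covariate), with Benjamini-Hochberg adjustment over 8358 genes and a threshold of 0.05. SE is the fold change divided by the root of the F value. The script was tested on simulated data. Values of 1 redox gene, counted among the 58, are not reported here. Genes that match the rule may all be named, and from the other lists up to 3 per direction past the threshold and the fixed oxidase partners. The members, lists and alternatives were chosen with earlier results of these data known. Alternatives were DESeq2 1.42.0, limma-voom (limma 3.58.1), 3 scalings, 2 filters, leaving out each library, summing Con replicates 2 and 3, and a replicate block. Intervals are exact at 95% and cover counting error alone, because they use counts summed over the libraries of each group and leave out the spread between libraries. No molecular identifiers mark which reads are copies of 1 molecule, so such copies count as separate reads.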

Additional observations from a re-analysis of the deposited data

How the results depend on the processing

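Of the 58 redox genes, 48 kept their direction and their side of the threshold under all of the 15 alternatives that tested them (the stricter filter tested 51), and none of the 49 called genes turned. The counts of 25 higher and 24 lower genes stayed within 1.5 times under each. The median log2 fold change of the redox genes, 0.04, has no firm sign: it was 0.10 with RLE scaling and with DESeq2 (0.10), -0.0432 with upper-quartile scaling, -0.31 with library size only, and 0.0167 to 0.0977 when 1 library was left out. The share of counts held by the set was 0.188 percentage points higher in KO (0.127 to 0.218 with 1 library left out) and 0.544 points with TMM factors. Uncalled genes that turned were Txnl4a (0.0330 with RLE scaling, 0.0329 with DESeq2, 0.0045 under the stricter filter, -0.0541 to 0.0115 with 1 library left out, above 0 without KO replicate 1), Sod3 (-0.568 to 0.0557 with 1 library left out, above 0 without KO replicate 2) and, with library size only, Gclc (-0.18), Gstp1 (-0.20) and Txnl1 (-0.25). Papola was at -0.13 there. The cause of these shifts was not tested. Replicate numbers do not pair the samples: the deviations of same-numbered libraries had correlations of -0.00374 to 0.0277. With a replicate block, 25 redox genes were higher and 25 lower, with Gsto1 added (-0.27, adjusted p = 0.0187). Genes under 1 CPM, such as Gstp2, Sod3 and Nfe2l3 in Con, are limited by depth.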
